A study of Mus musculus with 16 samples.

Results

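Chromatin accessibility at 10 genes that mark the epithelium of the lung was read from peak lists of 8 mouse tissues: the surfactant protein genes Sftpa1, Sftpb, Sftpc and Sftpd, the lipid transporter gene Abca3, the alveolar type 1 genes Ager and Hopx, the airway genes Scgb1a1 and Foxj1, and the regulator gene Nkx2-1. They were chosen by name as known markers of lung epithelial cells, and they are 10 of the 21938 protein-coding genes of the annotation that lie on chromosomes present in the lists. The study used ATAC-seq, in which the Tn5 transposase cuts open chromatin and tags the ends for sequencing. The mice were C57BL/6 males acquired at 12 weeks of age, and each group held 3 mice that were either fed without restriction or fasting for 24 h. Powder of each organ was pooled within a group, so lung, kidney, heart, liver, spleen, muscle and both white and brown adipose tissue each gave 1 fed and 1 fasting library, 16 in all. All tissues of a state came from the same mice, and no library had a replicate. Nothing marked or sorted epithelial cells, so a lung library holds the open chromatin of every lung cell type, and fewer cells of a type cannot be told apart from less open chromatin per cell.

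The gas exchange surface of the lung is lined by thin alveolar type 1 cells and by cuboidal alveolar type 2 cells, which make pulmonary surfactant and store it in lamellar bodies. The conducting airways are lined mainly by secretory club cells and by ciliated cells. NKX2-1 is the homeodomain factor that specifies the lung lineage and is also used in thyroid and forebrain, neither of which was sampled here.

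Each list held 298996 to 299529 summits, a summit being the position of highest signal within a peak. A promoter summit is a summit within 3000 bp of any annotated start of a gene. Its strength is given as a percentile, the share of the summits of the same list whose deposited -log10 p was no larger, and a gene without a promoter summit has the value 0. The largest p listed was 7.5e-06 in fed and 1.7e-05 in fasting lung. It ranged from 7.7e-08 in fed to 0.0033 in fasting brown adipose. A weak summit listed in some libraries would thus be unlisted in others, and the value 0 does not stand for the same limit in every library. A percentile is a rank within a library and not an amount of open chromatin. The most common expected number of tags at a summit was 8.92 in the fed and 7.14 in the fasting lung library and ranged from 2.80 to 12.8 over the 16 libraries, so depth differed between them. Tags at a summit are given with an exact 95% Poisson interval, which covers counting error only.

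In the promoters printed below, genes strong in lung and weak or absent in most other libraries held fewer CpG than genes strong in every tissue. CpG is the dinucleotide that is dense in CpG islands. Of the 10 genes, 6 had an entry in the RefSeq promoter table used here (Sftpa1, Sftpb, Abca3, Ager, Hopx and Nkx2-1). Sftpc, Sftpd, Scgb1a1 and Foxj1 were not among its entries. The 200 bases before the RefSeq start are printed 5′ to 3′ on GRCm38.p6, with every CpG in capitals, for 4 genes whose promoter summits were strong in lung and weak or absent in most other libraries and for 2 whose summits were strong in all 16. For Nkx2-1 the strongest lung summits lie inside the gene, outside the printed bases.
Sftpa1, chr14:41131588-41131787, plus strand: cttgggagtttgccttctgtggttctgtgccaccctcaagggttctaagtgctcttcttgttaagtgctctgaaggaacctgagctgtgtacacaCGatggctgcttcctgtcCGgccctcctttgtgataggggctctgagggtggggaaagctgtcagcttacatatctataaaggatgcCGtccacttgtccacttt
Sftpb, chr6:72304410-72304609, plus strand: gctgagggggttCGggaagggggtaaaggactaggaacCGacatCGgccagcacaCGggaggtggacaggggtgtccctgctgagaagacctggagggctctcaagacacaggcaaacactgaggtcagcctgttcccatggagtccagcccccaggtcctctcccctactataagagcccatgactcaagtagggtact
Ager, chr17:34597650-34597849, plus strand: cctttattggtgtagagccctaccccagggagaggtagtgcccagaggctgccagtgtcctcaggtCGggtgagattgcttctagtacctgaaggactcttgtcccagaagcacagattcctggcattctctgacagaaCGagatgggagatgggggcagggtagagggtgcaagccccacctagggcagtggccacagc
Nkx2-1, chr12:56536909-56537108, minus strand: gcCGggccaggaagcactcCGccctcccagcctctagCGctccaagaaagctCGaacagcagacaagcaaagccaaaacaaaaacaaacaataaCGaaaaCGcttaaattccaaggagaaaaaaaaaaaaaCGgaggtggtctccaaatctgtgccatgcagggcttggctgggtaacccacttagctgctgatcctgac
Abca3, chr17:24351823-24352022, plus strand: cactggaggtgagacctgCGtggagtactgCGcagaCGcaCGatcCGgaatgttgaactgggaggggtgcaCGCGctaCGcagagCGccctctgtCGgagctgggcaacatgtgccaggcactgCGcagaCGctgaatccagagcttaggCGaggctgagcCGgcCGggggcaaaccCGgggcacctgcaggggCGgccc
Hopx, internal start, chr5:77095268-77095467, minus strand: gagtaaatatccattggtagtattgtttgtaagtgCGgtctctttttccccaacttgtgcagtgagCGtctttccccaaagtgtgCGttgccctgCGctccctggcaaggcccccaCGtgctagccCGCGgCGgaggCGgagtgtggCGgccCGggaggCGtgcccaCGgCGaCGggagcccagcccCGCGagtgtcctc
Ager held 2 CpG, Sftpa1 3, Sftpb 4 and Nkx2-1 7, while Abca3 and the internal start of Hopx held 17 each. The first start of Hopx, not printed, held 8, close to Nkx2-1. Over the 32851 promoters of the table the median was 5 CpG, with quartiles of 2 and 13. Among the 5497 genes with at most 4 CpG, 19.4% had a promoter summit in all 16 libraries, against 92.2% of the 6797 genes with at least 13. Of the 4211 genes between, where the 7 CpG of Nkx2-1 fall, 74.3% did. The classes are the promoters under the median, those from the upper quartile up and those between. They were set with the members' counts known, and the shares are a description.

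In all, 3 binding motifs were looked for on both strands of the same 200 bases: the NKX2-1 core CAAGTG, the FOXA core TGTTTAC and the C/EBP site TTGCNNAA. CAAGTG occurred once, before Sftpa1, on the strand opposite to the one printed, and 9.07% of all promoters in the table hold it. The other 2 motifs, held by 2.51% and 7.47% of all promoters, had no match in the printed windows.

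Of the 10 genes, Sftpa1 and Sftpd had the widest difference between lung and the mean of the other tissues, 83.8 and 83.2 percentile points. Sftpd encodes surfactant protein D, a collectin that binds microbial sugars, and lies on chr14:41172214-41185149, minus strand. Its promoter percentile was 81.7 in fed and 84.7 in fasting lung. No promoter summit was listed in any of the other 14 libraries, and Sftpd was the only 1 of the 10 genes of which this held. The strongest summit carried 103 tags in fed lung (95% interval 84.1 to 125) against 16.9 expected, and 118 in fasting lung (97.7 to 141) against 19.2 expected. It was 33 bp upstream of a start in fed and 222 bp upstream in fasting lung.

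Sftpa1 encodes surfactant protein A, the other surfactant collectin, and its start lies 53367 bp from that of Sftpd on chromosome 14, at chr14:41131782-41136452, plus strand. In lung the promoter percentile was 83.0 in the fed and 90.2 in the fasting library. Only 2 of the other 14 libraries had a promoter summit, with percentiles of 24.9 in fed heart and 14.4 in fasting spleen. Both of those summits lay in the first bases of the gene, 72 and 51 bp downstream of a start, and carried 14 and 12 tags. In lung the summit was 86 bp upstream in the fed library, with 128 tags (107 to 152), and 91 bp upstream in the fasting library, with 172 tags (147 to 200).

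Sftpc encodes surfactant protein C, a small hydrophobic peptide whose gene is among the most specific markers of type 2 cells, on chr14:70520949-70524081, minus strand. Within 3000 bp of its starts the percentile was 84.6 in fed and 82.2 in fasting lung and ran from 78.7 over a median of 86.9 to 99.1 in the other 14 libraries, so lung took place 6 among the 8 tissues. The strongest lung summit in that window was not at Sftpc: it lay 14 bp in fed and 9 bp in fasting lung from a start of Bmp1, the gene of a protease that processes procollagen. Sftpc has 2 annotated starts, and that of a transcript with a retained intron lies 1942 bp from a start of Bmp1. With summits assigned to the nearest protein-coding start, Sftpc had a percentile of 67.9 in fed and 70.6 in fasting lung. Fed spleen, at 26.0, was then the only other library with a summit. The summit at the Sftpc start itself lay 21 bp upstream in fed lung, with 133 tags (111 to 158) against 48.3 expected, and 26 bp upstream in fasting lung, with 129 tags (108 to 153) against 44.2 expected.

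Sftpb encodes surfactant protein B, needed for the surfactant film to spread, on chr6:72304610-72314371, plus strand. Fed and fasting lung had promoter percentiles of 85.7 and 89.4. In the other 14 libraries it ran from 0 over a median of 38.6 to 90.1, and 12 of them had a summit. Fed and fasting kidney, at 90.1 and 89.1, were the only ones above 63.3, and the mean of the 2 states was 89.6 in kidney and 87.6 in lung, with kidney above lung in fed and below it in fasting mice. The kidney summits were 1825 and 1828 bp upstream of the start, with 155 and 132 tags, whereas the lung summits were 275 bp upstream and 8 bp downstream. Within 1000 bp of a start kidney had no summit, the highest other library was fed heart at 63.3, and lung was highest.

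**Figure D1:**
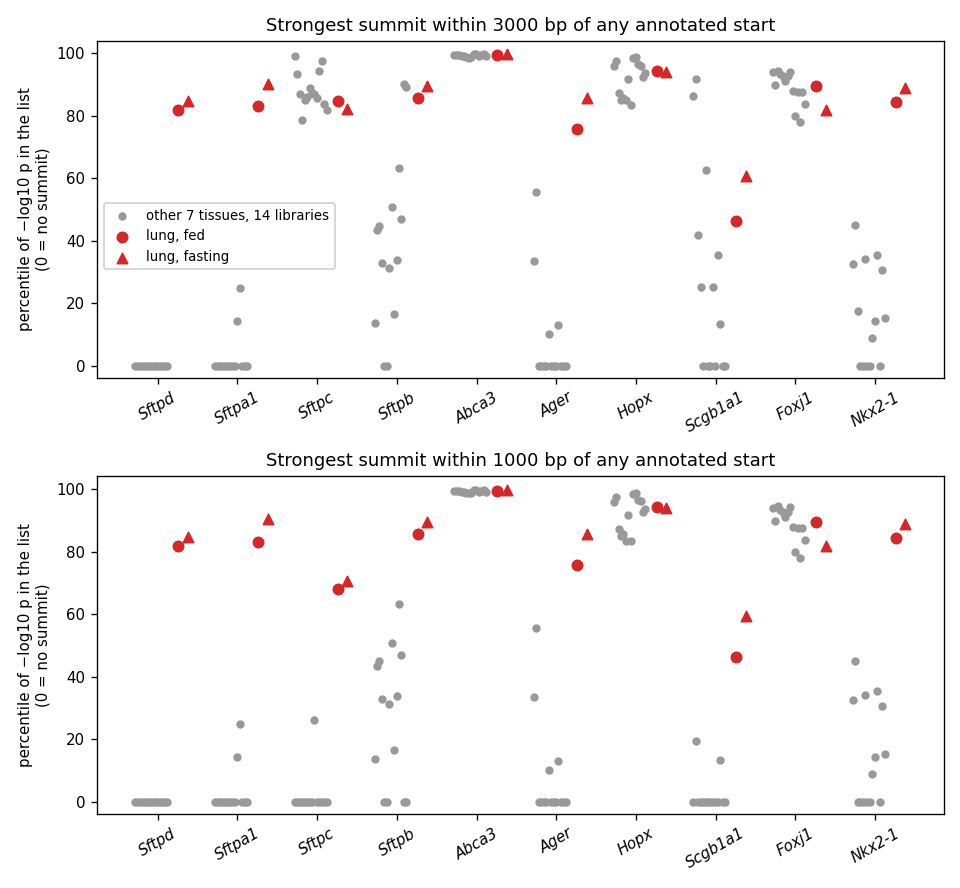
Promoter percentile (vertical axis, 0 where no summit was found) of the 10 genes in fed lung (red circles), fasting lung (red triangles) and the other 14 libraries (grey points), for windows of 3000 bp (top) and 1000 bp (bottom) around any annotated start. Sftpd has grey points at 0 only, Abca3, Hopx and Foxj1 have no grey point under 77.9 in the top panel, and the grey points of Sftpc, and those of Sftpb and Scgb1a1 above the lung values, drop away in the bottom panel.

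Abca3 behaved unlike the 4 surfactant protein genes. It encodes the transporter that loads surfactant lipids into lamellar bodies and lies on chr17:24351950-24410201, plus strand. The promoter ranked at 99.5 in fed and 99.7 in fasting lung, and in the other 14 libraries it ran from 98.6 over a median of 99.2 to 99.7. Lung took place 2 of 8 tissues, behind spleen, and exceeded the mean of the other tissues by 0.40 percentile points. The summit carried 626 tags (578 to 677) in fed and 594 (547 to 644) in fasting lung, 22 and 20 bp downstream of a start in an exon of the gene.

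**Figure D2:**
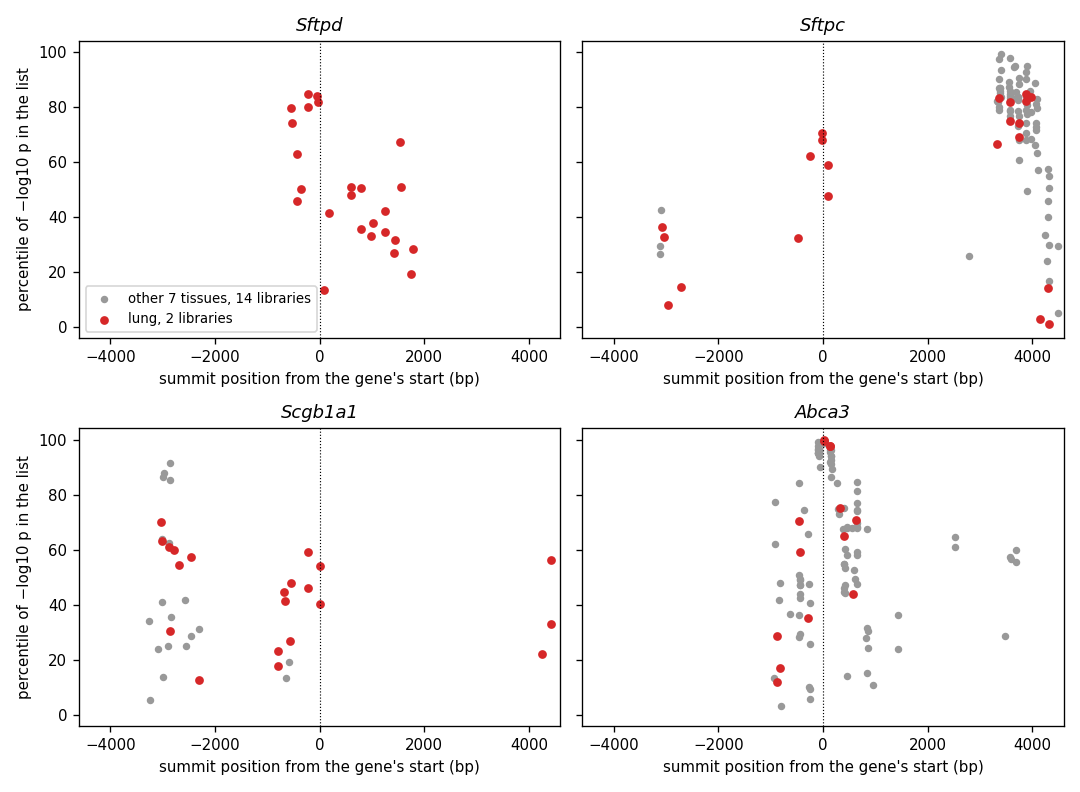
Position of every summit within 4500 bp of the gene's start (horizontal axis, bp, negative upstream) and its percentile (vertical axis) for 4 genes, in the 2 lung libraries (red) and the other 14 (grey). Red points alone stand at the Sftpd and Sftpc starts, the grey points of Sftpc cluster over 3000 bp downstream at the start of Bmp1, those of Scgb1a1 sit mostly far upstream, and at the start of Abca3 red and grey coincide.

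The 2 alveolar type 1 genes divided in the same way. Ager encodes the receptor for advanced glycation end products, abundant on the basal side of type 1 cells, and lies on chr17:34597862-34600936, plus strand. Its promoter percentile was 75.8 in fed and 85.7 in fasting lung. Outside lung it was 33.6 in fed and 55.7 in fasting liver, 13.04 in fed heart, 10.1 in fed white adipose and 0 in the remaining 10 libraries. None of those 4 reached either lung value. The summit was 29 bp upstream of a start in fed lung, with 136 tags (114 to 161), and 186 bp upstream in fasting lung, with 170 tags (145 to 198).

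Hopx encodes an atypical homeodomain protein without DNA binding of its own, found in type 1 cells and also in heart, and lies on chr5:77086988-77115121, minus strand. The promoter percentile was 94.2 in fed and 94.0 in fasting lung and ran from 83.4 over a median of 93.0 to 98.7 in the other 14 libraries. Lung took place 4 of 8 tissues, with spleen highest. The lung summits lay 9 and 7 bp downstream of an internal start, in a UTR of Hopx and in an exon of the antisense gene Hopxos, with 291 tags (259 to 326) in fed and 264 (233 to 298) in fasting lung.

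Of the airway genes, Scgb1a1, which encodes the club cell secretory protein, had the lowest lung values of the 10. It lies on chr19:9083636-9087958, minus strand. Its promoter percentile was 46.2 in fed and 60.8 in fasting lung, and in the other 14 libraries it ran from 0 over a median of 19.3 to 91.7. Fed and fasting liver, at 86.2 and 91.7, were above both lung values, and fasting brown adipose, at 62.5, was above them too. The liver summits were 2995 and 2855 bp upstream, and the strongest fasting lung summit in the window was also far from the start, 2877 bp upstream. The same lung region had its strongest summit just outside the window, 3038 bp upstream in fasting lung. Its percentiles were 63.2 in fed and 70.2 in fasting lung, above fasting brown adipose and below both liver values. The order of lung and brown adipose thus depends on the edge of the window. Within 1000 bp lung had percentiles of 46.2 and 59.3, and the only other libraries with a summit were fasting liver at 19.3 and fasting heart at 13.4. That summit was 218 bp upstream in fed lung, with 67 tags (51.9 to 85.1) against 25.0 expected, and 219 bp upstream in fasting lung, with 82 tags (65.2 to 102) against 27.9 expected.

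Foxj1 encodes the factor that switches on the genes of motile cilia and lies on chr11:116330704-116335399, minus strand. Fed lung had a promoter percentile of 89.4 and fasting lung of 81.7. In the other 14 libraries it ran from 77.9 over a median of 90.4 to 94.4, and all of them had a summit. Lung took place 5 of 8 tissues and was 3.44 points below the mean of the others, with muscle highest. The strongest summit was 108 bp upstream with 167 tags (143 to 194) in fed lung and 496 bp upstream with 105 tags (85.9 to 127) in fasting lung.

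Nkx2-1 lies on chr12:56531958-56536908, minus strand. Its promoter percentile was 84.2 in fed and 88.9 in fasting lung. In the other 14 libraries it ran from 0 over a median of 14.8 to 45.0, and 9 of them had a summit, the highest in fasting liver. All 14 lay below both lung values. The strongest lung summits lay in an intron of the gene, 692 bp downstream of a start in fed lung with 163 tags (139 to 190), and 535 bp upstream of the second annotated start in fasting lung with 191 tags (165 to 220). A separate region 192 bp upstream of the gene, with percentiles of 63.4 and 61.4 in fed and fasting lung, was met by no peak of any other library.

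Across the 10 genes, all had a promoter summit in both lung libraries, as did 72.3% of all protein-coding genes. Sftpd alone had one in both lung libraries and in none of the other 14, a pattern that 0.0638% of all genes (14 of 21938) showed. The tissue mean of the fed and fasting percentile was highest in lung for 4 of the 10 (Sftpd, Sftpa1, Ager and Nkx2-1), against 8.74% of all genes. With a window of 1000 bp it was highest in lung for 7 of the 10, adding Sftpb, Sftpc and Scgb1a1, against 9.14% of all genes. The median lung percentile of the 10 genes was 86.1, below the 90.9 of all genes, and their median in the other tissues was 33.5 against 85.7. The median difference between lung and the mean of the other tissues was 37.0 points, compared with 0.33 over all genes, and it was 33.9 among the fed and 40.2 among the fasting libraries. With 1 tissue labelled lung out of 8, an exact permutation of the labels cannot give a p below 0.125 for any gene, so these differences could not pass a threshold of 0.05.

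By cell type, 2 of the 5 type 2 genes, 1 of the 2 type 1 genes, the regulator and neither airway gene were highest in lung with the 3000 bp window. With 1000 bp the type 2 count was 4 of 5 and Scgb1a1 joined, while Abca3, Hopx and Foxj1 were not highest in lung under either window.

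Beyond the promoters, lung had the most summits across the gene body extended by 10000 bp for 9 of the 10 genes, against 10.3% of all genes. This included Abca3 and Hopx, whose promoters were open in every tissue. The extended windows also hold regions in neighbouring genes, among them exons of Rnps1 near Abca3 and introns of Pbx2 near Ager. For Sftpa1 the count was 18 in fed and 19 in fasting lung, and 0 to 13 with a median of 1 in the other 14 libraries. For Sftpd it was 26 and 27, against 0 to 9 with a median of 1.5. Nkx2-1 had 19 and 24, against 0 to 7 with a median of 3.5. In these 3 loci both lung libraries lay above all others. The share of all genes of which this held was not computed, and 10.3% is the share for the tissue mean.

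The same held for Sftpb (25 and 33, against 0 to 15), Sftpc (33 and 39, against 7 to 16), Scgb1a1 (23 and 29, against 3 to 13) and Ager (25 and 32, against 8 to 22). For these loci too, no share over all genes stands beside the pattern. Abca3 had 38 and 43 summits in lung, against 18 to 38 with a median of 30, so fed lung only equalled fed white adipose. Hopx had 26 and 31, against 13 to 30 with a median of 17, and fasting heart lay between the lung libraries. Foxj1 was the exception, with 10 in each lung library and 13 and 19 in fed and fasting kidney.

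**Figure D3:**
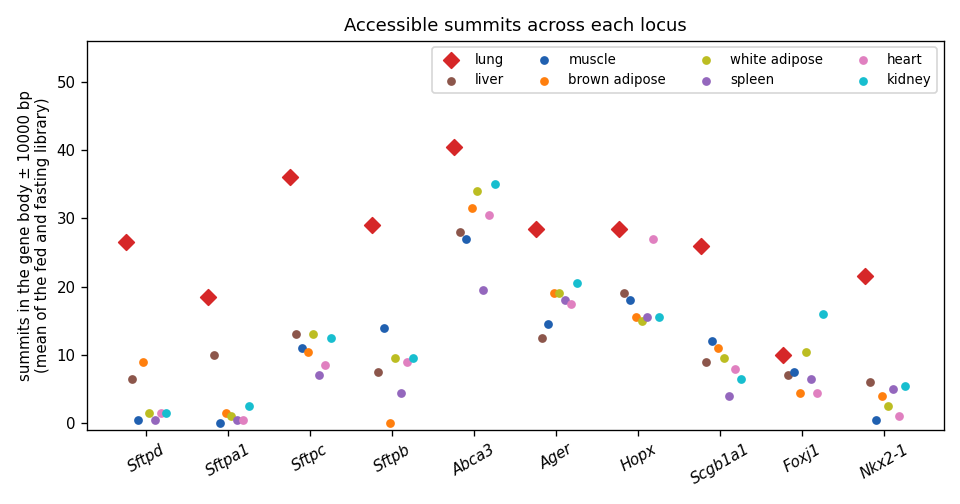
Number of summits in the gene body extended by 10000 bp on each side (vertical axis, mean of the fed and fasting library) for the 10 genes, by tissue, with lung as red diamonds. The lung diamond is the highest point for every gene but Foxj1, where kidney stands at 16 and lung at 10, and the gap is narrow for Hopx (28.5 against 27 in heart) and for Abca3 (40.5 against 35 in kidney).

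Around the 10 genes 93 regions of the fasting lung list overlapped a region of the fed lung list by at least 1 base. Of these, 24 (25.8%) were met by no peak in any of the other 14 libraries, against 8.45% of the 120592 such regions in the whole fasting lung list. Sftpd had 7 of 11, Sftpa1 5 of 7, Nkx2-1 4 of 10, Sftpb 3 of 11 and Sftpc 2 of 11, while Abca3, Hopx and Scgb1a1 had 1 each and Ager and Foxj1 had 0. Of the 9 regions near Ager 4 were met in all 14 other libraries, among them regions in introns of the neighbours Pbx2 and Agpat1.

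Away from the members' promoters, 2 of the regions met only in lung ranked high. At Hopx, an intronic region 4852 bp downstream of the first start had percentiles of 79.1 in fed and 81.5 in fasting lung, so a gene with a promoter open in all tissues carried an internal element found in lung only. At Sftpa1, a region 5449 bp downstream of the start, past the end of the gene, had percentiles of 80.5 and 86.6. The 201 bases centred on the fasting summit are printed on GRCm38, 5′ to 3′ on the gene's strand, with any match to the 3 motifs above in capitals. In fed lung the strongest summit of the Hopx region was at base 77109979, outside the printed window, so its fed percentile does not belong to the printed bases. The fed summit of the Sftpa1 region lay inside the printed window.
Hopx intron, chr5:77110169-77110369, minus strand: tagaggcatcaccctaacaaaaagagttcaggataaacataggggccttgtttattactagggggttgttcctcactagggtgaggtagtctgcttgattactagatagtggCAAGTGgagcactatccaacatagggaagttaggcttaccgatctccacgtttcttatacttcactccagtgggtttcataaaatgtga
Sftpa1 downstream, chr14:41137131-41137331, plus strand: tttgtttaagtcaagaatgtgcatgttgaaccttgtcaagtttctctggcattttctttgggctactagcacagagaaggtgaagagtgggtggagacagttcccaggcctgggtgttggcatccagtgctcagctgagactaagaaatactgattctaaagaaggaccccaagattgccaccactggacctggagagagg
The Hopx element holds CAAGTG once, from base 113 of the printed window, and 13.9% of the windows of this length in the fasting lung list hold it on either strand. The Sftpa1 element holds none of the 3 motifs, of which TGTTTAC and TTGCNNAA occur in 4.41% and 9.46% of such windows.

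Other markers of the same cell types, from lists of known marker genes, gave a similar division. Of 8 further type 2 markers, all had a promoter summit in both lung libraries and 3 were highest in lung. The shares over all genes, to be set beside the counts of this and the following lists, were 72.3% and 8.74%. Cxcl15, a chemokine gene, was at 77.0 and 78.3 in fed and fasting lung with 4.37 as the highest other tissue mean. Lamp3, a gene of the lamellar body membrane, was at 35.5 and 60.3 in lung and had no summit in any other library. The mucin gene Muc1 was at 93.3 and 90.2 in lung and 2.46 points below the mean of the other tissues.

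Of 8 type 1 markers 3 were highest in lung: the water channel gene Aqp5 (84.1 and 86.8 in fed and fasting lung), and by less than 1 point Emp2 and Gprc5a. Akap5 (91.2 and 89.8) was above the mean of the other tissues but below white adipose, at 90.9 against a lung mean of 90.5, and Pdpn was lower in lung (27.6 and 8.86) than in kidney (72.6). The 8 secretory genes had a median of 60.2 in lung and 13.3 in the other tissues, and 3 were highest in lung. Among them Gabrp was at 79.3 and 84.6 and Scgb3a1, a relative of Scgb1a1, at 58.1 and 74.5, but Bpifa1 had no lung summit. Within 1000 bp of a start Scgb3a1 was at 9.35 in fed and 0 in fasting lung, below 28.6 in another tissue. The 8 ciliated genes were like Foxj1, with medians of 98.5 in lung and 96.9 elsewhere and 1 of 8 highest in lung. That gene was Rfx3, with a mean of 99.14 in lung against 98.96 in muscle. Ccdc153 (80.5 and 53.2) and Mcidas (88.2 and 89.1) exceeded the mean of the other tissues most, yet kidney was above lung for Ccdc153 and spleen for Mcidas, and Dnah5 had no lung summit.

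Of 10 epithelial regulators beside Nkx2-1, 3 were highest in lung (Sox2, Grhl2 and Irx2), and the median difference from the mean of the other tissues was 19.6 points. That difference was widest for Foxa2 (83.2 and 90.3), whose mean in liver, 95.4, was above that in lung, and for Sox2 (88.5 and 89.7), while Sox9 (42.7 and 68.3) lay below the mean of the other tissues. Lists for other cells of the lung also ranked above the mean of the other tissues, by a median of 38.1 points for 6 pan-epithelial genes (Krt19 and Cldn4 most, Krt8 least), 22.9 for 6 endothelial genes (Tek and Pecam1 most, Kdr least), 29.0 for 6 immune genes (Cd79a and Ptprc most, Marco least) and 20.1 for 6 fibroblast and smooth muscle genes (Tcf21 and Pdgfrb most, Pdgfra least). The endothelial list was higher in heart, at a median of 91.5 against 88.9 in lung, and the immune list in spleen, at 85.1 against 63.3. In the immune list 5 of 6 genes had a lung summit, and Marco had none.

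**Figure D4:**
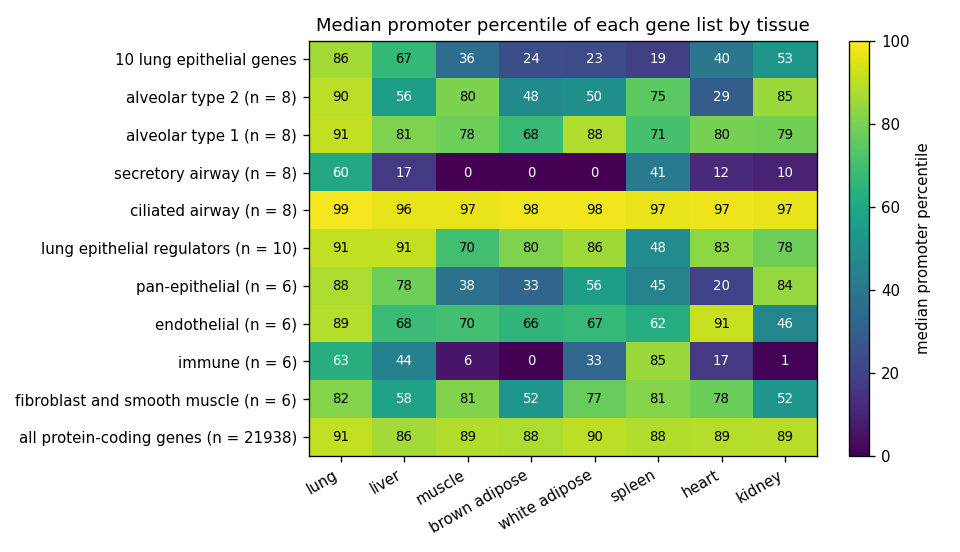
Median promoter percentile (colour and printed value) of the 10 lung epithelial genes, of 9 lists of marker genes and of all protein-coding genes in each tissue, as the median over genes of the mean of the fed and fasting library. The row of the 10 genes falls from 86.1 in lung to between 18.9 and 66.8 elsewhere, the row of ciliated genes is high throughout, and the row of all genes stays between 86.3 and 90.9.

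The genes whose profile over the 8 tissues was most like the mean profile of the 10, among 15850 other genes with a promoter summit in both lung libraries, were Gabrp (Pearson r = 0.98), Nr1h5 (0.98), Adam28 (0.98), Amd2 (0.97) and Rp1 (0.96). Their lung means were 81.9, 43.1, 81.2, 61.9 and 32.3, and their highest means in another tissue lay between 14.3 and 31.1. The mean profile was 84.1 in lung, 58.5 in liver and between 41.0 and 49.1 in the other 6 tissues, and r over 8 tissues rests largely on the single high value of lung.

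Between fed and fasting lung, each a single library, no test was possible. The median of fasting minus fed, 3.36 points, was small beside the median of 37.0 points between lung and the other tissues. This did not hold for every gene. Foxj1 was lower in fasting by 7.61 points, more than the 3.44 points by which lung lay below the mean of the other tissues. Of the 10 genes 7 had a higher percentile in fasting, against 46.3% of the 16496 promoters with a lung summit. Only Scgb1a1 moved by 10 points or more, up by 14.6, and its strongest summit was a different one in each state. Its summit 218 bp upstream in fed and 219 bp upstream in fasting lung was at 46.2 and 59.3. For Ager, Sftpb, Sftpd, Foxj1 and Nkx2-1 too, the strongest lung summit lay at a different position in fed and in fasting lung. Rises of 10 points or more were seen at 4.69% and falls at 7.29% of the promoters with a lung summit. Ager was higher in fasting by 9.90, Sftpa1 by 7.24, Nkx2-1 by 4.62, Sftpb by 3.75, Sftpd by 2.98 and Abca3 by 0.21, while Hopx was lower by 0.21, Sftpc by 2.38 and Foxj1 by 7.61. The median was 3.36 points, compared with -0.07 over all promoters with a lung summit. It was 1.60 among the 100000 rows of smallest p and 0.95 when summits were ranked by fold enrichment.

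Other markers moved between the same 2 libraries. Of all promoters with a lung summit, 46.3% were higher and 53.7% lower in fasting lung. All 10 of the further epithelial regulators were higher in fasting lung, by a median of 2.66 points. Of the 6 immune genes 5 were lower in fasting lung, with a list median of -15.8 points: Ptprc went from 82.3 to 64.7, Itgam from 74.1 to 43.2, Csf1r from 75.6 to 61.6, Cd79a from 71.8 to 64.1 and Cd3e from 81.7 to no summit, with Marco at 0 in both. The part of such a change in the values of the 10 genes was not tested.

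Taking the 8 tissues as pairs, an exact sign-flip test of fasting minus fed, run on all 19719 protein-coding promoters with a summit, called 0 (0.00%) at a Benjamini-Hochberg adjusted p under 0.05, and 1043 had an unadjusted p under 0.05. The tissues of a state came from the same mice, so the 8 pairs are not independent and p does not measure variation between mice. The smallest p this design allows is 0.0078, so 3082 promoters would have to reach it before any could be called, and 181 did. Foxj1 was lower in fasting in 7 of 8 tissues, by a mean of 4.36 points, with an unadjusted exact two-sided p of 0.023 and an adjusted p of 0.82. Its differences ran from -9.66 in heart to -1.25 in muscle, with white adipose higher by 1.34. Sftpc, read with the Bmp1 summits, was lower in 6 of 8 (exact p = 0.13, adjusted p = 0.95), and the other 8 genes had unadjusted exact p values from 0.36 to 1. For Sftpd, where lung was the only tissue with a summit, the test holds no information. A library without a listed summit entered as 0, although the largest p listed differed between the states. The Nkx2-1 summit in fasting brown adipose had a -log10 p of 4.56, too weak for the fed list, whose largest p was 7.7e-08. The part of these limits in such differences was not tested.

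**Figure D5:**
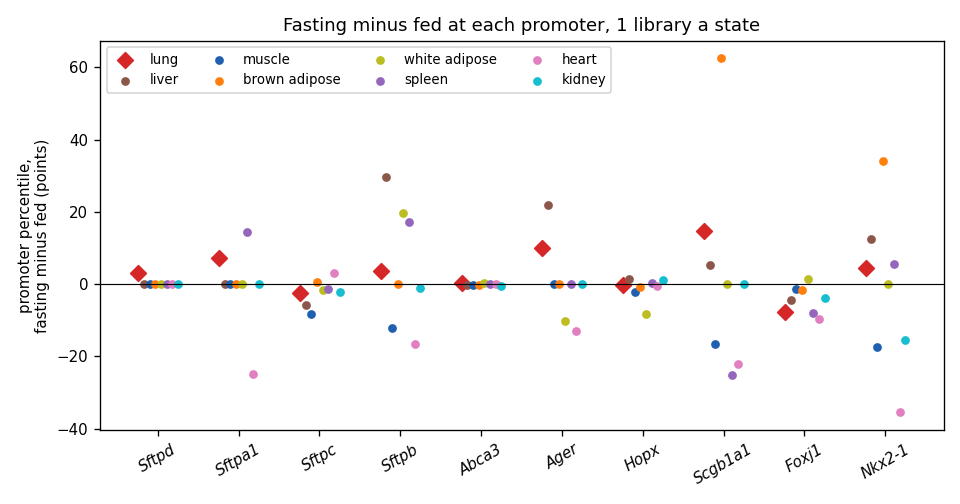
Promoter percentile in fasting minus fed (vertical axis, percentile points, 1 library a state) for the 10 genes in each tissue, with lung as red diamonds and values at 0 where neither library has a summit or both are equal. Lung ranges from -7.61 for Foxj1 to 14.6 for Scgb1a1, Abca3 stays between -0.39 and 0.21, and the widest differences are those of weak summits outside lung, up to 62.5 for Scgb1a1 in brown adipose.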

How the data were processed

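According to the study's methods, the authors trimmed adapters, aligned them with Bowtie2 to GRCm38, removed unmapped and duplicate reads and called peaks with MACS2 (versions not given in the sources used here). The deposited lists were capped near 300000 rows and sorted by p. The deposited fold enrichment is a ratio of tags to expected tags at the summit, and the deposited -log10 p and -log10 q values come from the authors' Poisson test within a library. None is scaled between libraries, so ranks within a list were used.

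Starts and gene bodies came from GENCODE vM21 on GRCm38. Tags were solved from fold and p, and came out whole (within 0.001) for 98.1% to 100.0% of summits. The members and marker lists were chosen with earlier results of these data known. Marker genes named are, per list, the 2 with the largest and the 1 with the smallest difference between lung and the other tissues. Genes at the strongest promoter summits and the 5 most alike in profile are named too, and Itgam, Csf1r, Cd3e, Emp2, Gprc5a, Rfx3, Grhl2 and Irx2 were named after their values were seen. Differences of 10 points were counted as moved. The 8 tissues entered the sign-flip test over 256 flips as pairs. Alternatives were 3 stricter peak sets, other windows, starts and percentiles, ranking by fold, and each tissue left out. The leave-out for the count of genes highest in lung was added after seeing the data. Scripts ran in Python 3.11.15 with numpy 2.4.6, scipy 1.17.1, pandas 2.3.3 and matplotlib 3.10.9 and were tested on simulated data.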

Additional observations from a re-analysis of the deposited data

How the results depend on the processing

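All 10 genes kept a promoter summit in both lung libraries at q under 0.01, at q under 1e-06, with the narrower window and with the other choices of start, and 9 did among the 100000 rows of smallest p. The number with no summit outside lung was 1, and 3 at q under 1e-06 and 4 among the 100000 rows of smallest p. Stricter lists can only lose summits, and the share of all genes with this pattern was not computed for them. The number highest in lung was 4, and 7 with a 1000 bp window. It was 5 both with starts of protein-coding transcripts and with summits assigned to the nearest start. The median of lung minus the other tissues, 37.0 points, was 53.3 at q under 1e-06, 64.0 with a 1000 bp window, 57.6 both with starts of protein-coding transcripts and with summits assigned to the nearest start, 41.6 over distinct regions and 16.1 when summits were ranked by fold enrichment. It stayed between 34.1 and 41.3 with each other tissue left out, and the number highest in lung between 4 and 5. The number with the most gene body summits in lung was 9, also at q under 0.01 and under 1e-06. It was 7 among the 100000 rows of smallest p, and 8 both without the extension and with one of 50000 bp. No share over all genes was computed for these alternatives. The sign-flip test called 0 promoters under every alternative, with 831 to 1045 at an unadjusted p under 0.05. The cause was not tested. The median of fasting minus fed in lung, 3.36 points, was 1.60 among the 100000 rows of smallest p, 0.95 when ranked by fold enrichment and 3.36 to 3.54 otherwise. Scgb1a1 had a mean lung promoter percentile of 0 among the 100000 rows of smallest p. Ranked by fold enrichment, the mean lung percentile was lower for several genes: 51.0 for Sftpc, 61.2 for Ager, 73.1 for Sftpb, 73.7 for Nkx2-1 and 36.3 for Scgb1a1. It was 82.0 for Sftpa1, 82.4 for Sftpd, 82.8 for Foxj1, 88.4 for Hopx and 98.4 for Abca3. The lists hold no replicates, and neither the effect of depth nor that of the differing largest p of the lists was tested.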
